A study of Vernicia fordii and Jatropha curcas with 4 samples.

Results

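The genes described here make and break down abscisic acid, a hormone of seed maturation. They were found through 10 Arabidopsis loci of known function: NCED3 (AT3G14440), NCED5 (AT1G30100), NCED6 (AT3G24220), NCED9 (AT1G78390), ABA1 (AT5G67030), ABA2 (AT1G52340), AAO3 (AT2G27150), CYP707A1 (AT4G19230), CYP707A2 (AT2G29090) and CYP707A3 (AT5G45340). Every assembled contig to which the deposited tables gave one of these locus codes was taken, whatever its level. The Jatropha table of 45411 contigs and 13319 loci held 13 such contigs from 8 of the 10 loci. The Vernicia table of 49582 contigs and 13333 loci also held 13, from 7 loci. No contig carried the code of NCED9 or CYP707A3 in either table, and none in Vernicia carried that of NCED5. A code names the Arabidopsis locus to which a contig was matched, so the copies of a family can be interchanged, and the codes carry no gene names in the tables.

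The material was developing seed of the physic nut Jatropha curcas and the tung tree Vernicia fordii, which both belong to the spurge family, taken from trees 3 years old. The labels give no genotype or treatment. Polyadenylated RNA of 4 libraries was sequenced, 2 per species, and RNA of 3 seeds was mixed in equal parts for each. The start of oil accumulation (29 days after pollination in Jatropha, 90 in Vernicia) and its fast phase (37 and 135 days) gave 1 library each per species. The columns of values end in 7 and 8, which no label ties to a stage, so the libraries are called library 7 and library 8 and no difference is given a direction in time. With 1 library per stage there was no replicate check and no test, and all differences are described by size.

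Abscisic acid is made from carotenoids. In Arabidopsis, ABA1 is the zeaxanthin epoxidase of the plastid, the NCED enzymes cleave epoxycarotenoids to xanthoxin in the step regarded as limiting, ABA2 turns xanthoxin into abscisic aldehyde in the cytosol, and AAO3 oxidizes the aldehyde to the hormone. The CYP707A enzymes are cytochrome P450 hydroxylases that start its main route of breakdown. During seed development the hormone is known for promoting reserve storage and desiccation tolerance and for preventing early germination, and NCED6 is known in Arabidopsis for its expression in the endosperm.

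The labels name the tissue as seed and, in another field, as endosperm. Of 3 loci listed for 12S globulins, the seed storage proteins, all 3 were found in Jatropha and 2 in Vernicia. Their summed level was 509.47 RPKM in library 7 of Jatropha and 133703 in its library 8 (16.4% of all its RPKM), and 333.11 and 69945 RPKM in Vernicia (9.30% in library 8). Of 3 oleosin loci, 2 were found in Jatropha, with 949.62 and 21177 RPKM, and 3 in Vernicia, with 91.04 and 5495 RPKM. For green tissue, 2 Rubisco small subunit loci were listed, of which 2 were found in Jatropha and 1 in Vernicia. They summed to 26.49 and 109.97 RPKM in Jatropha libraries 7 and 8 and to 72.40 and 192.14 in Vernicia. Of the 2 in Jatropha, 1 was above 0 in library 7 and listed at 0 in library 8, opposite to the sum. Of 2 light-harvesting loci none had a contig in Jatropha and 1 in Vernicia, listed at 0 in library 7 and at 1.37 RPKM in library 8. These levels differed between the libraries, as did those of some of the hormone genes described next, and their part in those differences was not tested. In whole tissue, fewer cells of a type and less RNA per cell cannot be told apart.

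In Jatropha, the 3 NCED loci, AAO3 and the 2 CYP707A loci found by the rule were at 0.10 to 3.38 RPKM in library 7 and at 2.3 to 29.74 in library 8. The values are RPKM, which divides reads by contig length and by the mapped reads of a library, summed over the contigs of a locus. NCED6 had 0.23 RPKM in library 7 and 22.74 in library 8, from 1 contig. NCED5 had 0.16 and 6.39 RPKM, and NCED3 had 0.47 and 2.3 RPKM, each from 1 contig. All 3 cleavage genes were thus below 0.5 RPKM in library 7, and in library 8 NCED6 was the most abundant of them.

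AAO3, the aldehyde oxidase, had 3.38 RPKM in library 7 of Jatropha and 29.74 in library 8. It was the most abundant of the 8 loci in library 8. Of the breakdown genes, CYP707A2 had 0.10 and 8.50 RPKM and CYP707A1 0.44 and 5.18 RPKM. The order of these 2 hydroxylases differed between the libraries, as CYP707A1 was the higher in library 7 and CYP707A2 in library 8. ABA1 and ABA2 did not share the pattern of the other 6 loci. ABA1 had 11.26 RPKM in library 7 and 8.95 in library 8. ABA2 had 54.48 and 19.36 RPKM, and so was the most abundant of the loci in library 7.

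**Figure D1:**
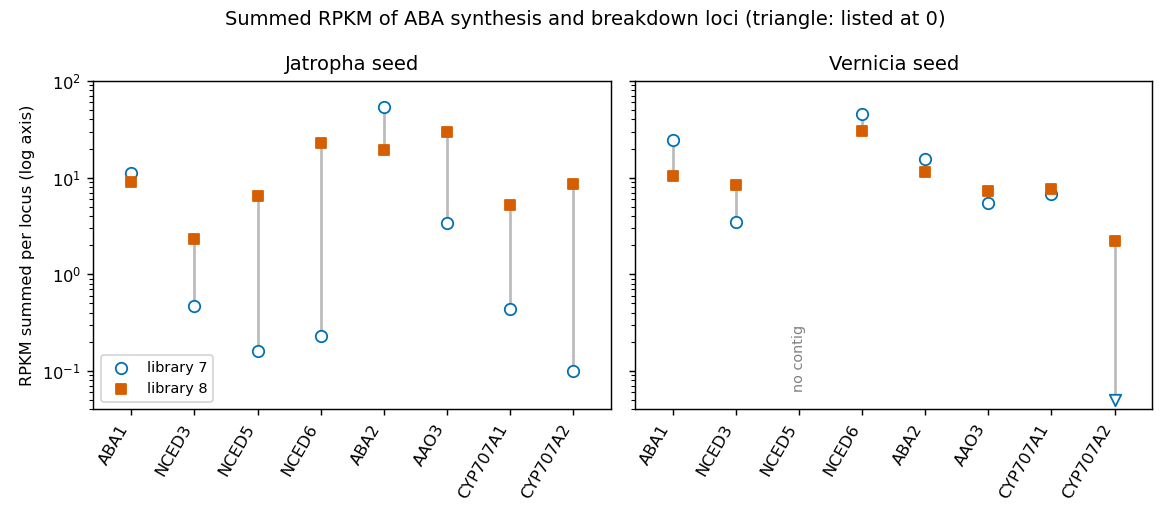
RPKM summed per locus (log axis) in library 7 (open circles) and library 8 (filled squares) of each species, 1 library each; the triangle marks CYP707A2, listed at 0 in Vernicia library 7. In Jatropha NCED6 stood at 0.23 and 22.74 RPKM, while in Vernicia it stood at 45.61 and 30.69.

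In Vernicia 4 of the 7 loci were within 2-fold between the libraries, and NCED6 was abundant in both. NCED6 had 45.61 RPKM in library 7 and 30.69 in library 8, the highest level of the 7 loci in each. NCED3 had 3.43 and 8.34 RPKM from 3 contigs. The cleavage step was thus represented mainly by the NCED6 contig, which made up 93.0% of the NCED total in library 7 and 78.6% in library 8.

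ABA1 had 24.45 RPKM in Vernicia library 7 and 10.39 in library 8. ABA2 had 15.41 and 11.40 RPKM, and AAO3 had 5.48 and 7.19. Of these 3, the epoxidase differed most between the libraries. CYP707A1 had 6.79 and 7.70 RPKM. CYP707A2 was listed at 0 in library 7 and had 2.19 RPKM in library 8 from 2 contigs, of 1.32 and 0.87 RPKM, so that no fold is given for it.

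Differences were expressed as log2((library 8 + 1)/(library 7 + 1)) in RPKM, a scale that understates the change of low genes. In Jatropha they were 4.27 for NCED6, 3.11 for CYP707A2, 2.81 for AAO3, 2.67 for NCED5, 2.10 for CYP707A1 and 1.17 for NCED3. They were -0.30 for ABA1 and -1.45 for ABA2. Thus 6 of the 8 loci were at least 2-fold higher in library 8, against 7.15% of the 12931 Jatropha loci that reached 1 RPKM in 1 library or both. The 1 locus at least 2-fold lower was ABA2, a direction that 46.9% of all loci shared. The median difference was 2.39 over the 8 loci and -0.93 over all loci tested. Of the 6 higher loci, 5 had under 0.5 RPKM in library 7 and met the minimum only through library 8, where they then had to be the higher, so their count is a description only. Read numbers are unknown, and values this low can rest on few reads.

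A comparison that starts from library 7 alone avoids that minimum, with limits of 0.5 and 5 RPKM that were chosen after the values were seen. Of 407 Jatropha loci under 0.5 RPKM in library 7, 51 (12.5%) had at least 5 RPKM in library 8. Among the 5 such hormone loci (NCED3, NCED5, NCED6, CYP707A1 and CYP707A2), 4 did, and NCED3 did not. Because the limits were set with these values known, this comparison is a description only.

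In Vernicia the log2 differences were 1.67 for CYP707A2, 1.076 for NCED3, 0.34 for AAO3, 0.16 for CYP707A1, -0.40 for ABA2, -0.56 for NCED6 and -1.16 for ABA1. At least 2-fold higher in library 8 were 2 of the 7 loci, against 7.70% of 12896 loci, and 1 was at least 2-fold lower, against 18.8%. One of the 2 higher loci, CYP707A2, met the minimum only through library 8 and so had to be higher there. The median was 0.16 over the 7 loci and -0.48 over all loci tested.

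**Figure D2:**
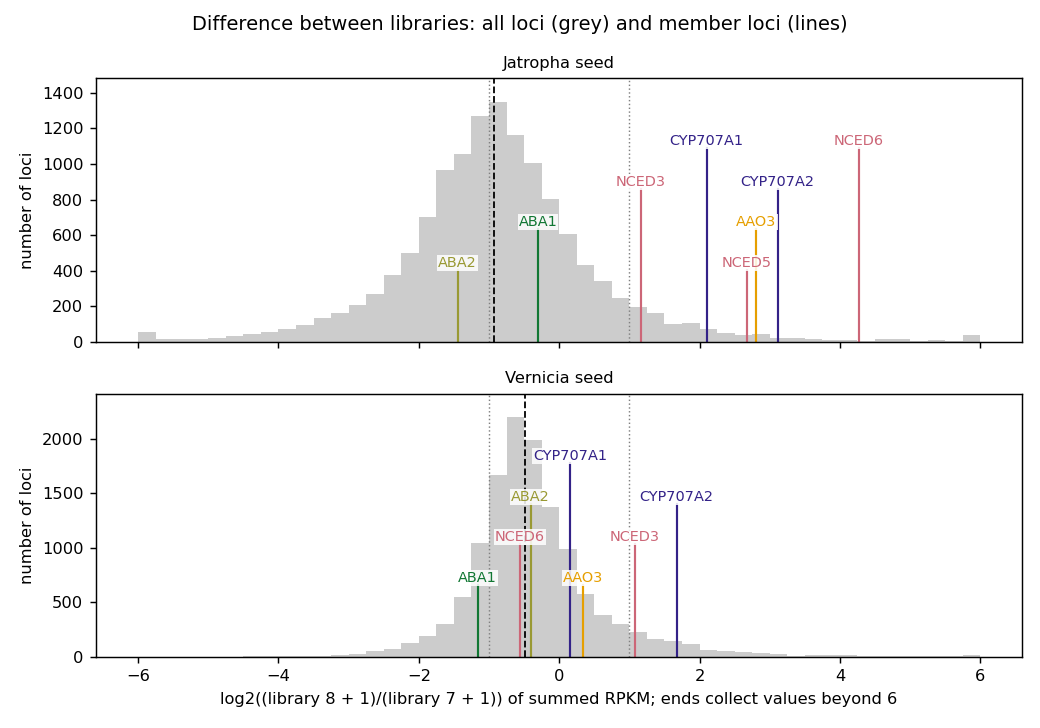
Number of loci by log2 difference between library 8 and library 7 in each species (grey), with the hormone loci as coloured lines whose height has no meaning; the dashed line is the median of all loci (-0.93 in Jatropha, -0.48 in Vernicia) and dotted lines mark 2-fold. In Jatropha 6 of 8 lines lie to the right of the 2-fold mark, in Vernicia 2 of 7.

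Most loci of both species were lower in library 8 on the deposited scale. Among loci with at least 1 RPKM in both libraries the median log2 difference was -0.86 in Jatropha and -0.48 in Vernicia. Relative to these medians, NCED6 differed by 5.13 in Jatropha and by -0.08 in Vernicia. ABA1 in Jatropha differed by 0.56 and ABA2 by -0.58. In Vernicia ABA2 differed by 0.07 and ABA1 by -0.68, so ABA1 of Jatropha and ABA2 of Vernicia, lower in library 8 as deposited, lay above their medians. After trimmed mean scaling, which removes a shift shared by most contigs, 6 Jatropha loci were at least 2-fold higher and none lower, against 15.0% and 24.2% of all loci. In Vernicia 2 were higher and none lower, against 11.1% and 9.48%.

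Ranks within a library do not depend on the scaling between libraries. In Jatropha, NCED6 stood at the 1.80th percentile of all loci in library 7 and at the 82.9th in library 8. AAO3 stood at the 17.9th and 86.7th, and CYP707A2 at the 1.05th and 60.6th. These 3 had the largest gains in rank of the 8 loci, and NCED5, CYP707A1 and NCED3 gained 51.2, 43.7 and 23.7 percentile points. ABA1 also stood higher in library 8, at the 62.1st percentile against the 47.0th, although its RPKM was lower. Of the 8, only ABA2 had the lower rank in library 8, at the 79.9th percentile against the 86.4th.

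In Vernicia NCED3 gained most, from the 18.5th percentile in library 7 to the 47.8th in library 8. CYP707A2, AAO3 and CYP707A1 stood 16.4, 16.0 and 13.1 points higher in library 8. NCED6 stood at the 83.0th and 80.2nd percentile and ABA2 at the 55.8th and 56.4th, so these 2 nearly kept their ranks. ABA1 was at the 69.2nd and 53.9th. NCED6 of Vernicia in both libraries and NCED6 of Jatropha in library 8 thus all lay between the 80.2nd and 83.0th percentile.

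**Figure D3:**
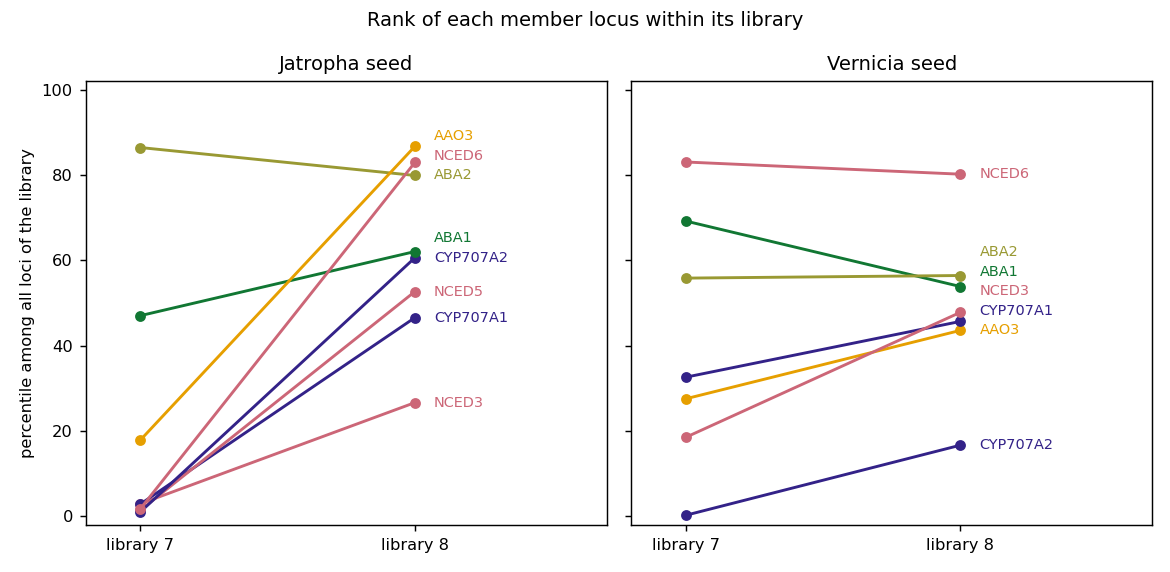
Percentile of each hormone locus among all loci of its library (vertical axis, 0 to 100), with lines joining library 7 to library 8 of a species. In Jatropha 5 loci start below the 3rd percentile and 7 of 8 lines slope upward; in Vernicia NCED6 and ABA2 run nearly level.

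The makeup of the group was read within each library. In Jatropha library 7 the loci summed to 70.52 RPKM, of which ABA2 held 77.3% and the NCED loci 1.22%. In library 8 they summed to 103.16 RPKM, of which ABA2 held 18.8% and the NCED loci 30.5%. In Vernicia the NCED loci held 48.5% of 101.17 RPKM in library 7 and 50.1% of 77.90 RPKM in library 8. The share of the cleavage genes was therefore small in 1 library, Jatropha 7, and between 30.5% and 50.1% in the other 3.

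Synthesis and breakdown were set side by side as the ratio of summed NCED to summed CYP707A RPKM. It was 0.86 to 0.54 RPKM, or 1.59, in Jatropha library 7 and 31.43 to 13.68 RPKM, or 2.298, in library 8. Both sums of these loci were thus higher in library 8 of Jatropha. In Vernicia the ratio was 49.04 to 6.79 RPKM, or 7.22, in library 7 and 39.03 to 9.89 RPKM, or 3.95, in library 8. These sums hold only the loci named at the start, and they turn on that choice. A further locus code, AT3G19270, which general knowledge of Arabidopsis places with the CYP707A genes, had 15.19 and 2.73 RPKM in libraries 7 and 8 of Jatropha and 14.96 and 3.85 RPKM in those of Vernicia. With it the CYP707A sums were 15.73 and 16.41 RPKM in Jatropha, nearly equal, and 21.75 and 13.74 RPKM in Vernicia. The ratio was then 0.0547 in library 7 and 1.92 in library 8 of Jatropha, and 2.25 and 2.84 in Vernicia. With this locus the NCED sum was thus far below the CYP707A sum in Jatropha library 7, and the order of the Vernicia libraries was turned. The ratio of the loci named at the start also rested on 1 contig in 3 libraries: without the most abundant NCED contig, that of NCED6, the ratio was 0.635 for library 8 of Jatropha and 0.505 and 0.843 for libraries 7 and 8 of Vernicia. Without the most abundant CYP707A contig it was 6.07, 81.7 and 15.1 in the same libraries.

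**Figure D4:**
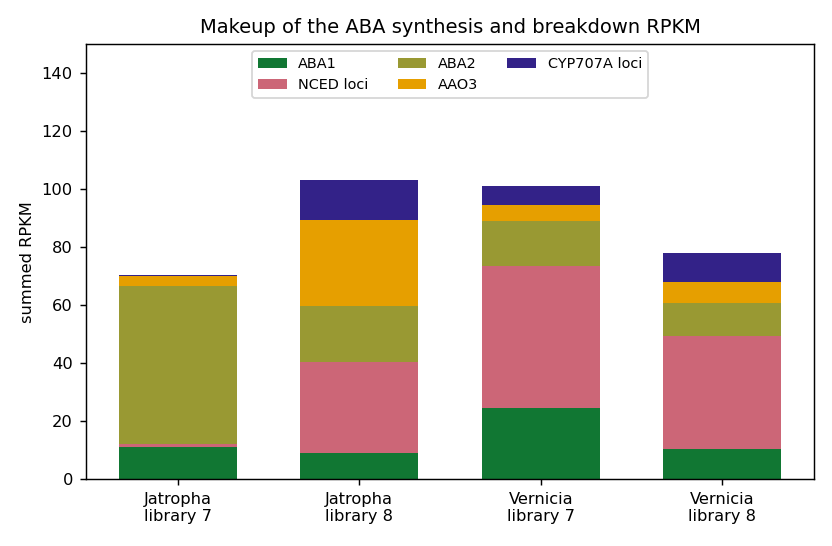
Summed RPKM of the hormone loci in each library, stacked by step of the pathway (1 library per bar, vertical axis from 0). ABA2 makes up 77.3% of the bar of Jatropha library 7, and the NCED loci between 30.5% and 50.1% of the other 3 bars.

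Of the 7 loci found in both species, 6 differed in the same direction as deposited and 1, NCED6, in opposite directions. In Jatropha NCED3, NCED6, CYP707A1 and CYP707A2 met the minimum only through library 8 on either scale, so they had to be higher there. The same held for CYP707A2 in Vernicia, so its shared direction was fixed. The counts of shared signs are therefore a description only. Of all 11054 loci that reached 1 RPKM in both tables, 70.2% had the same sign, so the share among the 7 stands near that background. After trimmed mean scaling 5 of the 7 had the same sign, against 53.0% of all loci, as ABA1 then had opposite signs, at 0.46 in Jatropha and -0.80 in Vernicia. ABA2 had opposite signs relative to the medians, at -0.58 and 0.07. The tables were normalized separately and a library number need not mean the same stage in both, so only the differences within a species are given together. ABA2 was lower in library 8 of both species, by log2 values of -1.45 in Jatropha and -0.40 in Vernicia, and NCED3 was higher by 1.167 and 1.076. AAO3 differed by 2.81 in Jatropha and 0.34 in Vernicia, and CYP707A1 by 2.10 and 0.16. With a pseudocount of 0.1 RPKM the differences of NCED3 were 2.07 and 1.26. CYP707A2 differed by 3.11 in Jatropha and 1.67 in Vernicia. As deposited, AAO3, CYP707A1, CYP707A2, NCED6, ABA2 and, slightly, NCED3 thus had the larger differences in Jatropha. ABA1 had the larger one in Vernicia, at -1.16 against -0.30 in Jatropha. These contrasts between species were not tested.

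Contigs of 1 locus did not always move together. In Jatropha ABA1 was represented by comp26397_c0, with 8.21 and 1.61 RPKM in libraries 7 and 8, and by comp24884_c0, with 3.05 and 7.34 RPKM. These 2 contigs differed in opposite directions, by log2 values of -1.82 and 1.04, so the small difference of their sum covers 2 larger ones. In Vernicia both ABA1 contigs were lower in library 8, comp24462_c2 with 16.39 and 6.54 RPKM and comp21004_c0 with 8.06 and 3.85. The CYP707A1 contigs of Vernicia differed in opposite directions, comp24768_c0 with 6.19 and 7.3 RPKM and comp954228_c0 with 0.6 and 0.4. The latter did not reach 1 RPKM in either library. Whether the contigs of a locus are separate genes or pieces of 1 transcript is not known, and the sum overstates the level in the second case.

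AAO3 had 4 contigs in Jatropha. The contig comp27186_c0 had 0.39 and 23.12 RPKM, a log2 difference of 4.12, and carried most of the difference of the locus. Another, comp10616_c0, had 2.49 and 4.28 RPKM, and comp24018_c0 was listed at 0 in library 7 and had 1.33 RPKM in library 8. All 4 were higher in library 8, and 2 of them by at least 2-fold, as were 17.0% of all Jatropha contigs that reached 1 RPKM. However, comp27186_c0, comp24018_c0 and comp1572976_c0 (0.5 and 1.01 RPKM) met that minimum only through library 8. Their direction was thus fixed, and nothing is read from the shared direction or the count. In Vernicia the AAO3 contigs comp20330_c0, with 4.29 and 5.98 RPKM, and comp731641_c0, with 1.19 and 1.21, differed little. NCED3 of Vernicia was split over comp11151_c0, with 1.67 and 5.48 RPKM, comp789908_c0, with 1.27 and 1.37, and comp840106_c0, with 0.49 and 1.49. The first of these accounted for most of the difference of that locus.

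Counted as contigs, 8 of the 13 in Jatropha were higher by 2-fold or more in library 8 and 2 were lower, against 17.0% and 37.0% of all contigs that reached 1 RPKM. Of those 8, 7 were under 1 RPKM in library 7 and met the minimum only through library 8, where they had to be the higher, so nothing is read from this count. In Vernicia 11 of the 13 contigs reached that minimum, of which 2 were higher and 1 was lower, against 9.77% and 16.8%. Of the 2 higher, comp1129987_c0 of CYP707A2, at 0 and 1.32 RPKM, met it only through library 8. Its direction was thus fixed, and nothing is read from this count either.

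A further 40 loci of abscisic acid supply, transport and perception were listed by locus code from general knowledge of Arabidopsis; the tables pair the codes with no names, so the loci are given by list. In Jatropha 26 were found and 25 reached 1 RPKM. Of these, 8 were past 2-fold upward and 7 downward in library 8, and their median difference was 0.21 against -0.93 for all loci. Among the 8 were a synthesis locus at 0 and 1.76 RPKM and a receptor locus at 0.38 and 1.9 RPKM. Both met the minimum only through library 8, where they had to be the higher. In Vernicia 27 were found, of which 3 were higher and 5 lower, with a median of -0.36 against -0.48. Over all loci, 7.15% were higher and 46.9% lower by 2-fold in Jatropha, while these shares were 7.70% and 18.8% in Vernicia. Under trimmed mean scaling the wider pathway had 12 loci higher and 3 lower in Jatropha, against 15.0% and 24.2% of all loci, and 4 higher and 5 lower in Vernicia, against 11.1% and 9.48%. Its balance in Jatropha thus depended on the scaling.

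The counts by list are small, and the shares over all loci just given are their background. The receptor and synthesis counts of Jatropha each include a higher locus that met the minimum only through library 8. The protein phosphatases, which hold back the signal in the absence of the hormone, summed to 239.18 RPKM in Jatropha library 7 and 853.12 in library 8, with 3 of 5 loci at least 2-fold higher and 1 lower, or 4 and 0 after trimmed mean scaling. In Vernicia they summed to 168.13 and 187.26 RPKM, with 2 of 6 higher and 1 lower. The receptors summed to 255.92 and 158.15 RPKM in Jatropha, with 2 of 5 higher and 2 lower, and to 135.53 and 111.44 in Vernicia, with none of 5 past 2-fold. The kinases, which pass the signal on, summed to 54.69 and 53.62 RPKM in Jatropha and 220.17 and 228.06 in Vernicia, with none of 2 past 2-fold in either species. Of the carotenoid and other synthesis loci, 2 of 9 were higher and 2 lower in Jatropha, and 1 of 11 higher and 2 lower in Vernicia. Of the breakdown, conjugation and transport loci, 1 of 4 was higher and 2 lower in Jatropha, and none of 3 higher and 2 lower in Vernicia.

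Of the 22 listed loci that reached 1 RPKM in both tables, 1 was higher and 3 were lower by 2-fold or more in library 8 of both, against 1.85% and 9.55% of all such loci. Another, AT1G07430 of the phosphatase list, was past 2-fold in opposite directions, as were 3.81% of all loci, at 37.6 and 227.32 RPKM in Jatropha and 61.08 and 19.07 RPKM in Vernicia. Under trimmed mean scaling 23 listed loci reached 1 RPKM in both tables, and 2 were higher and 2 lower in both species. The shares of all loci are not given on that scale, so nothing is read from these 2 counts. On the deposited scale the higher locus was AT5G51760, on the phosphatase list, with 8.18 and 54.73 RPKM in Jatropha and 3.87 and 17.53 in Vernicia. Among the lower was AT3G19270, whose values are given above with the CYP707A sums. Its difference was opposite in direction to those of CYP707A1 and CYP707A2 in both species. AT4G19170, on the synthesis list, had 14.77 and 0.21 RPKM in Jatropha and 15.04 and 5 in Vernicia.

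**Figure D5:**
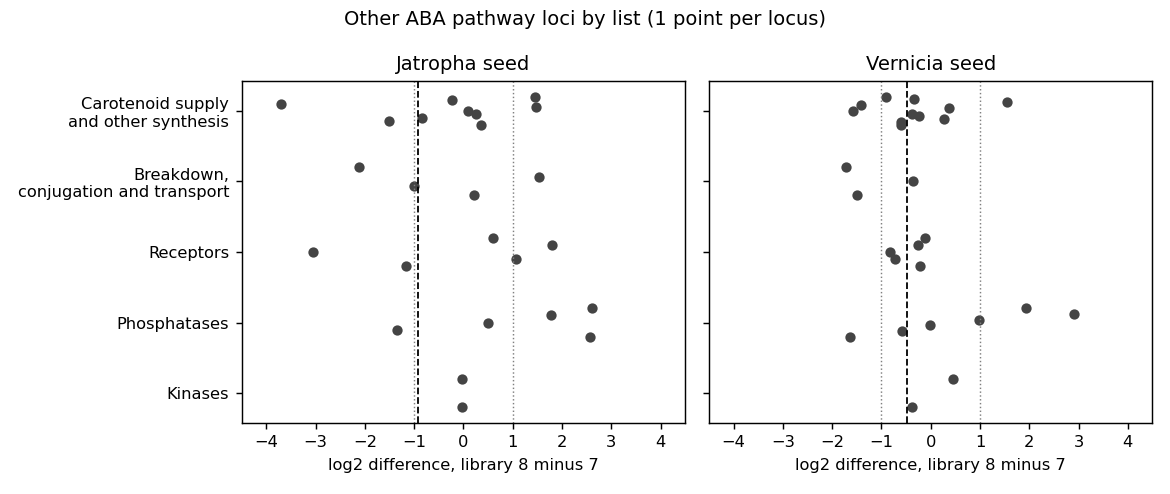
Log2 difference between library 8 and library 7 of each further pathway locus that reached 1 RPKM, by list and species; the dashed line is the median of all loci (-0.93 in Jatropha, -0.48 in Vernicia) and dotted lines mark 2-fold. Points lie on both sides of 0 in Jatropha, 8 past the upper mark and 7 past the lower, while 19 of the 27 Vernicia points lie between the marks.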

How the data were processed

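Per the labels' protocols, polyadenylated RNA was fragmented and made into directional libraries. For each species the authors deposited a table of RPKM values of assembled contigs, rounded to 2 decimals, and an Arabidopsis locus code for part of them; the tables' names give the unit. Per the submitters' processing notes, Bowtie and edgeR were used, in roles that are not stated. Assembler, locus search, counting, read totals and contig lengths are not stated in the sources used, so counting error could not be computed. Summed RPKM ranged from 676071 to 1104588 per library, and 1 contig held 25.1% of Jatropha library 7. A sum per locus depends on how transcripts were split into contigs.

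The members and lists were chosen with earlier results of these data known. All contigs of the 10 loci entered the sums and counts, and values of single contigs are printed for only some of them. Of the other loci, codes are printed for some of those at least 2-fold apart in both species, of which AT1G07430 differed in opposite directions. The code AT4G18350 is printed because it was added to the NCED loci in an alternative ratio. The most abundant locus of each list, which the rule for named genes also held, is not printed as such, because the tables pair codes with no names. Differences used a pseudocount of 1 RPKM and a minimum of 1 RPKM in either library. Alternatives were pseudocounts of 0.1 and 5 RPKM, no minimum and 10 RPKM, 4 scalings (the trimmed mean left out 30% of the log ratios at each end), 4-fold, and the highest contig per locus. The steps were tested on simulated data with an assumed read depth and with changes planted only in loci of at least 10 RPKM on average. Changes at lower levels were thus not covered. Python 3.11.15, pandas 2.3.3 and NumPy 2.4.6 were used.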

Additional observations from a re-analysis of the deposited data

Results flagged for a closer look

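NCED6 differed in opposite directions between the libraries of the 2 species, with a log2 difference of 4.27 in Jatropha (0.23 and 22.74 RPKM in libraries 7 and 8) and -0.56 in Vernicia (45.61 and 30.69 RPKM). Each value rests on 1 library per stage, the difference between the species was not tested, and the labels do not say whether equal numbers mark equal stages.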

How the results depend on the processing

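Of 127 alternative values of single loci, 110 kept their direction and their side of 2-fold, and 12 kept the direction but were no longer 2-fold apart. The other 5 changed sign, all for ABA1 of Jatropha, at 0.46 after trimmed mean scaling and 1.04 with the highest contig alone, against -0.30. Not all 127 could differ, as the values with no minimum and at 10 RPKM or more equal the main ones by construction. Those of the highest contig do so too for loci of 1 contig, so the 110 overstates how far the values hold. In Jatropha the number of hormone loci at least 2-fold higher, 6, was 2 at 10 RPKM or more, where fewer loci enter. That number was 4 with a pseudocount of 5 RPKM, 5 at 4-fold and 7 with the highest contig alone. The number lower, 1, was 0 at 4-fold and after median-ratio scaling, trimmed mean scaling and equal totals without the top 100 contigs. In Vernicia the numbers, 2 higher and 1 lower, fell to 0 and 0 at 4-fold, and likewise with a pseudocount of 5 RPKM. There were 0 higher at 10 RPKM or more, 1 higher with equal totals, and 0 lower under the same 3 scalings as in Jatropha. Of the further pathway loci in Jatropha, 8 higher and 7 lower became 5 and 4 with a pseudocount of 5 RPKM, 5 higher at 10 RPKM or more, 3 lower under those 3 scalings, and 2 and 3 at 4-fold. In Vernicia 3 higher and 5 lower became 1 and 0 at 4-fold. The ratio of NCED to CYP707A RPKM in Jatropha library 8, Vernicia library 7 and Vernicia library 8 (2.298, 7.22 and 3.95) was 0.635, 0.505 and 0.843 without the most abundant NCED contig and 6.07, 81.7 and 15.1 without the most abundant CYP707A contig. With AT3G19270 among the CYP707A loci, chosen after seeing the data, the ratio was 0.0547 against 1.59 in Jatropha library 7 and 2.25 in Vernicia library 7, or 0.0547 and 2.29 with AT4G18350 also added to the NCED loci. Over all loci, 925 higher and 6068 lower in Jatropha became 533 and 3842 with a pseudocount of 5 RPKM, 597 higher at 10 RPKM or more, and at 4-fold 362 and 2071. In Vernicia 993 and 2428 became 622 and 1057, and 343 and 332 at 4-fold. Where no cause is given, the cause was not tested. No paired analysis was possible because a stage has a single library and nothing was tested.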
